A study of Homo sapiens with 7 samples.

Results

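Transcripts of 6 genes around the Hippo pathway were followed over 720 min of continuous blue light: CYR61, CTGF, ANKRD1, AMOTL2 and LATS2, which are known targets of the coactivator YAP, and AJUBA, a LIM-domain scaffold gene. The 5 target genes were listed by name, with earlier results of these data known. AJUBA was chosen by its measured course, a strong upward bend in an earlier fit of these libraries, so its values are a description and carry no test. All 6 were found among the 18817 genes with a row in at least 1 library, and all 6 were among the 13566 genes with enough counts to be tested. The cells were H4, an established human neuroglioma line, carrying Cry2Olig-PKR, a fusion of a light-clustering protein with the kinase PKR whose activation starts the integrated stress response. According to the labels, cells on a fibronectin-treated glass-bottom plate were lit for 60, 120, 240, 480, 600 or 720 min, or not at all (0 min), and lysed at once. Every group, the unlit one included, carries the fusion, and each is 1 library, so nothing here is replicated and each interval covers counting error alone. Unlit cells at the later times were not analysed here, so light and time in the plate cannot be told apart.

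In the Hippo pathway the kinases LATS1 and LATS2 phosphorylate YAP and its relative TAZ (gene WWTR1) and keep them out of the nucleus. When the kinases are quiet, YAP and TAZ enter the nucleus and switch on genes through the TEAD DNA-binding proteins. Some of the targets feed back on the pathway: LATS2 is itself one of the kinases, and AMOTL2 encodes an angiomotin that binds and restrains YAP. AJUBA, not listed here as a target, binds LATS kinases. CYR61 and CTGF encode secreted matrix-associated proteins of the CCN family (now CCN1 and CCN2), and ANKRD1 encodes an ankyrin-repeat protein known from muscle. Cell attachment, spreading and density are known inputs to the pathway.

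The sequences around the annotated starts of these genes are shown because the targets were chosen for a shared regulator. RefSeq windows on GRCh38.p14, each from 250 bases before to 50 after an annotated start, were matched for 5 of the 6 members (7 windows, all on the minus strand, written 5′ to 3′); CYR61 had no window. The TEAD core letters GGAATG, searched on both strands and marked here in capitals, occurred 3 times in the CTGF window at chr6:131951323-131951622 and 2 times in the ANKRD1 window at chr10:90921038-90921337.
CTGF: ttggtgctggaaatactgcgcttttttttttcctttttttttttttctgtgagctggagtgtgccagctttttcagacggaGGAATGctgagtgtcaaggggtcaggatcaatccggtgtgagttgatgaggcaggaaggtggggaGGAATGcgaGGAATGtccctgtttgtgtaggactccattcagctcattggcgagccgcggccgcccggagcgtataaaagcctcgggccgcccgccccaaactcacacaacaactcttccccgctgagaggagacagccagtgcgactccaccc
ANKRD1: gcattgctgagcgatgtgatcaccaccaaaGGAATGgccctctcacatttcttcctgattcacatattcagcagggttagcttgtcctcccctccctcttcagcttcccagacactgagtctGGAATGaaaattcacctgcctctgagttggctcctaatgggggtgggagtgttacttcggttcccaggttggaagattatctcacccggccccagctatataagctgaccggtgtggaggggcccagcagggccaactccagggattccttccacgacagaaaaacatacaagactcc
Of all 35116 windows of 300 bases in the table, 14% held at least 1 match, 1.37% at least 2 and 0.128% at least 3. Single matches were found in 1 of the 2 AMOTL2 windows (on the opposite strand, excerpt chr3:134374491-134374536), in the LATS2 window (chr13:21061552-21061597) and in 1 of the 2 AJUBA windows (chr14:22976849-22976921). The LATS2 match begins at base 10 after the annotated start, and the TEAD core matches of the other members lie before their starts. The AJUBA excerpt also holds, in its second run of capitals, TTGCATCA, the opposite strand of the ATF-C/EBP motif TGATGNAA, which 3.62% of all windows held.
AMOTL2: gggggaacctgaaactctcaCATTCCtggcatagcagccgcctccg
LATS2: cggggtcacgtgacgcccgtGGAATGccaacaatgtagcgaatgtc
AJUBA: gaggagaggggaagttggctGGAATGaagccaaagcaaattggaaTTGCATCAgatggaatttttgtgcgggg
The AP-1 motif TGANTCA was found once among the 7 windows, in that of ANKRD1 (7.71% of all windows), and the CArG box of serum response factor in 0 of them (1.29% of all windows). All motifs were searched on both strands, and no 2 matches overlapped. The counted reads come from the 3′ ends of transcripts, so which start was used was not measured. A match is a description of the letters, and no match says only that they are not in the window.

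Gene counts summed to between 7048135 and 8911644 transcripts in the 6 complete libraries. The table at 480 min stops at NME1-NME2 in alphabetical order and holds 5266040; all 6 members lie before that point, while YAP1, WWTR1, the TEAD genes and other late names have no 480 min value. There were between 2.32 and 2.38 reads per unique molecular identifier (UMI) in 5 libraries and fewer, 2.11 and 2.08, at 60 and 120 min. Of the neural and glioma markers, VIM stood at 682 to 886 CPM (counts relative to the normalized library size), CD44 at 495 to 703 CPM and SOX2 at 15.9 to 54.5 CPM, whereas NES did not exceed 1.65 CPM and GFAP had no row. Besides COL1A1, at 67.8 to 118 CPM, 7 markers of other cell types (leukocyte, endothelial, epithelial, liver and muscle) did not exceed 0.824 CPM in any library, and 1 of them, CDH5, had no row. COL1A1 (0.55 ± 0.19, edgeR adjusted p = 0.044) and OLIG2 (1.29 ± 0.27, adjusted p = 0.00456) also bent upward by the fit described below. OLIG2 stayed high, with 5.06 CPM at 0 min, 17.9 at 240 min, 20.5 at 600 min and 18.1 CPM at 720 min. SOX2 had 36.0 CPM at 0 min and 15.9 CPM at 600 min, and FN1 had 411 CPM at 0 min and 231 CPM at 720 min, neither called. The part of these markers in the results was not tested.

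All 6 genes stood above the unlit level in the middle of the course and came most of the way back. At 240 min each was between 3.00-fold (AMOTL2) and 4.59-fold (LATS2) of its 0 min level. Of the members with at least 50 counts in either library, 3 of 5 were at least 2-fold higher than at 0 min after 60 min (CYR61, CTGF and AMOTL2), against 2.07% of all genes compared. After 120 min they were 4 of 5 (5.42% of all genes), after 240 min 6 of 6 (10.3%), after 480 min 5 of 6 (9.49%), after 600 min 1 of 5 (6.08%) and after 720 min 1 of 5 (4.76%). AJUBA, chosen for its course, is in these counts and was the 1 remaining at 600 and 720 min. ANKRD1 reached 50 counts only at 240 and 480 min (81 and 62 transcripts), so it entered only where it was high. Its ratios at 120 min (2.37-fold) and 600 min (0.688) are left out of these counts. Some members lie close to 2-fold, which is 1 on the log2 scale. AJUBA at 720 min had a log2 ratio of 1.02, but 0.983 with UMI counts and 0.973 when scaled by total counts, which leaves 0 of 5. CYR61 at 480 min had 1.05, but 0.979 with UMI counts. AMOTL2 also crossed the limit with other counts, as given with its values. No member was 2-fold lower at any time, against 0.375% of all genes at 60 min, 2.9% after 120 min, 5.9% after 240 min, 6.22% after 480 min, 4.36% after 600 min and 4.43% after 720 min. In such bulk RNA, fewer cells making a transcript and less of it per cell cannot be told apart.

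**Figure D1:**
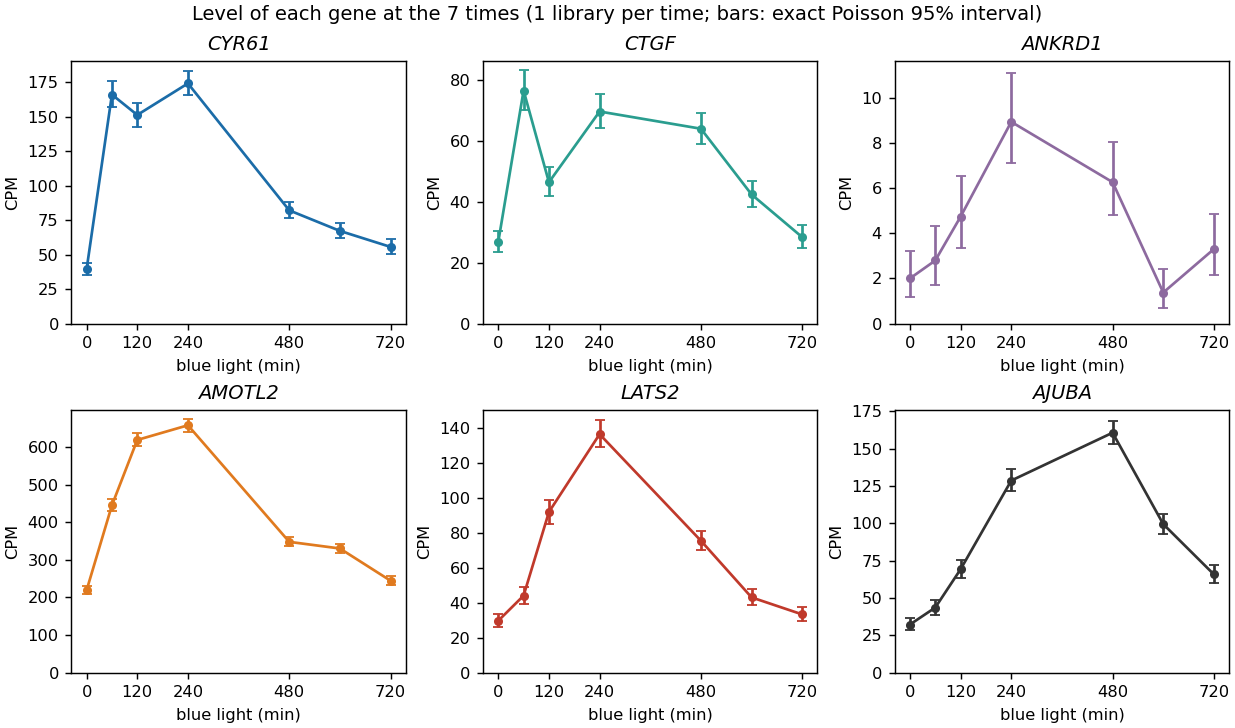
Level of each gene (vertical axis, CPM from 0) against minutes of blue light (horizontal axis). Points are single libraries, and bars are exact Poisson 95% intervals, which cover counting error only. CYR61 and CTGF are near their highest level at 60 min, AMOTL2, LATS2 and ANKRD1 are highest at 240 min, and AJUBA is highest at 480 min.

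The secreted CCN genes were the quickest. CYR61, a matricellular growth regulator that binds integrins, had 39.4 CPM at 0 min, 166 after 60 min, 151 after 120 min, 174 after 240 min, 82.1 after 480 min, 67.2 after 600 min and 55.6 CPM after 720 min. The library at 60 min was already 4.21-fold the unlit one (95% interval 3.73 to 4.77), which is 94.0% of its span from 0 min to the highest library. The levels at 240 and 60 min differed by less than counting error (ratio 1.05, interval 0.972 to 1.13), and every other pair of neighbouring levels was separated. At 720 min CYR61 was still 1.41-fold its 0 min level (1.22 to 1.63).

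CTGF, which promotes matrix production and is the family's best-known YAP target, had a dip between 2 high stretches. Its level was 26.8 CPM at 0 min, 76.6 after 60 min, 46.5 after 120 min, 69.7 after 240 min, 64.0 after 480 min, 42.4 after 600 min and 28.4 CPM after 720 min. The 120 min library was at 0.607 of the 60 min level (0.530 to 0.694), and the 240 min library at 1.32 to 1.71 times the 120 min level (95% interval). The dip was present whichever kind of count was used: relative to 0 min, UMI counts gave 2.72-fold at 60 min, 1.74-fold at 120 min and 2.51-fold at 240 min, and read counts gave 2.99-fold, 1.87-fold and 2.74-fold at the same times. In the order of levels, 60 and 240 min, 240 and 480 min, and 120 and 600 min did not differ by more than counting error. Nor did 720 and 0 min, at 1.06-fold (0.874 to 1.28). The dip rests on 1 library at 120 min, one of the pair with fewer reads per UMI; the part of that in the result was not tested.

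The angiomotin gene AMOTL2 followed. It stood at 219 CPM at 0 min, 445 after 60 min, 619 after 120 min, 658 after 240 min, 348 after 480 min, 330 after 600 min and 245 CPM after 720 min. It was 2.03-fold its unlit level at 60 min (1.92 to 2.15) and 3.00-fold at 240 min (2.85 to 3.16), and by 120 min had covered 91.1% of its span. At 720 min it was 1.12-fold (1.05 to 1.19). The size depends on how molecules were counted; at 240 min its 3141 UMIs used 76.7% of the 4096 possible ones. Plain UMI counts gave 2.00-fold at 240 min (1.88 to 2.13), with 120 min highest at 2.11-fold, and reads gave 4.16-fold (4.00 to 4.32). Reads that share a UMI are not independent, and there were 4.62 reads per UMI at 240 min, so the interval for reads is too narrow. The interval for transcripts leaves out the error of correcting for UMIs used more than once. With UMI counts its log2 ratio was 0.80 at 60 min and 0.998 at 240 min, both below 2-fold, and with read counts it was 1.04 at 480 min, above 2-fold.

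**Figure D2:**
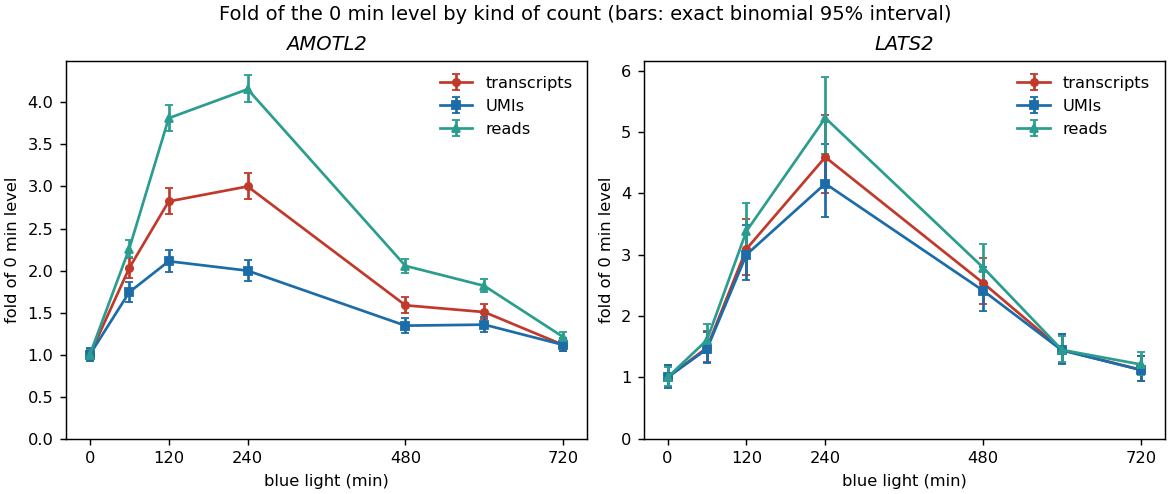
Fold of the 0 min level (vertical axis, linear from 0) against minutes of blue light (horizontal axis) for AMOTL2 and LATS2 by deposited transcript, UMI and read counts; bars are exact binomial 95% intervals for counting error. At 240 min AMOTL2 is at 3.00-fold by transcripts, 2.00-fold by UMIs and 4.16-fold by reads, while the LATS2 intervals for transcripts overlap those of the other counts. The bars take each read as independent, so those for reads are too narrow.

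LATS2, the kinase that restrains YAP, started more slowly. Its level was 29.7 CPM at 0 min, 44.0 after 60 min, 91.8 after 120 min, 136 after 240 min, 75.4 after 480 min, 43.0 after 600 min and 33.3 CPM after 720 min. Of its span, 13.5% was covered at 60 min, where it was 1.48-fold the unlit level (1.25 to 1.76), and 58.3% at 120 min. At 240 min it was 4.59-fold (4.01 to 5.28), and it was 4.09-fold higher there than at 720 min (3.57 to 4.70). The levels at 720 and 0 min were not separated (1.12-fold, 0.939 to 1.34).

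ANKRD1, known for its induction in stressed heart muscle, was counted rarely in H4 cells, so its course is the least certain. It had 17 transcripts at 0 min, 20 after 60 min, 37 after 120 min, 81 after 240 min, 62 after 480 min, 12 after 600 min and 25 after 720 min. The 240 min level was 4.46-fold the unlit one (2.62 to 8.03) and the 480 min level 3.13-fold (1.81 to 5.71). The step down at 600 min was the steepest of the 6 genes, at 0.220 of the 480 min level (0.108 to 0.412). That step rests on 1 library with 12 transcripts. At 720 min ANKRD1 was again higher, at 2.40-fold the 600 min level (1.16 to 5.24). At 60, 600 and 720 min its ratio to 0 min was within counting error (1.40-fold, 0.688 and 1.65-fold).

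AJUBA, which links cell contacts to LATS kinases, was the latest. It stood at 32.3 CPM at 0 min, 43.6 after 60 min, 69.2 after 120 min, 129 after 240 min, 161 after 480 min, 99.5 after 600 min and 65.8 CPM after 720 min. At 60 min 8.84% of its span was covered. It was the only one of the 6 with a higher level after 480 than after 240 min, the 480 min library being 1.25-fold the 240 min one (1.16 to 1.35), and each of the other 5 was lower at 480 than at 240 min, CTGF within counting error (0.919 of the 240 min level, 0.822 to 1.03). At 720 min AJUBA was 2.04-fold its unlit level (1.76 to 2.37), with 26.1% of its span left, against 3.13% to 18.8% for the 5 targets. The levels at 120 and 720 min did not differ by more than counting error.

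**Figure D3:**
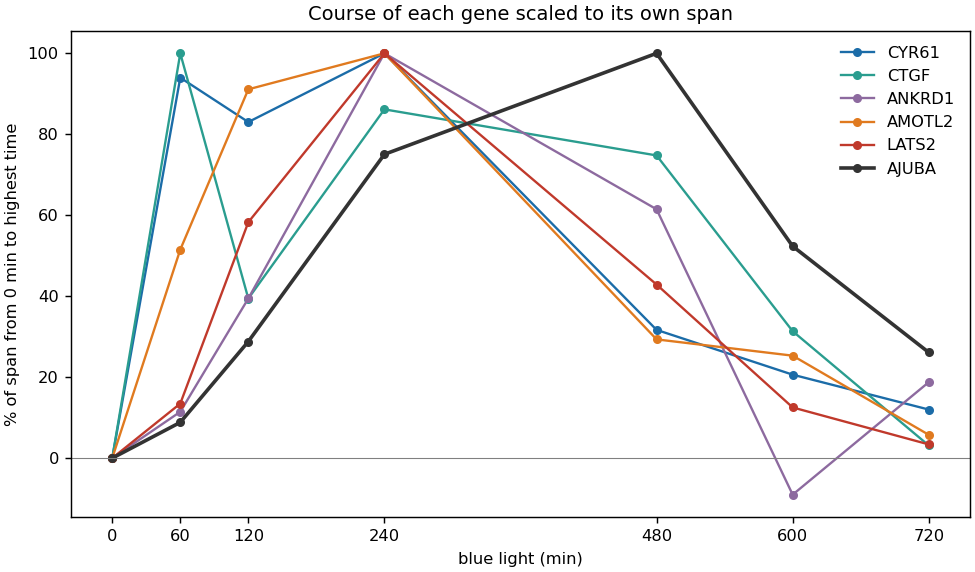
Course of each gene as a percentage of its own span from 0 min to its highest library (vertical axis) against minutes of blue light (horizontal axis); each point is 1 library. At 60 min CYR61 is at 94.0% and LATS2 at 13.5% of the span, and at 480 min AJUBA is at 100% when AMOTL2 is at 29.3%.

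Whether such a course departs from a straight line was tested across all genes with edgeR's quasi-likelihood F test. The bend is the fitted log2 level in the middle of the course minus the mean of both ends, and the trend is the fitted log2 change over 720 min; p-values were adjusted over all 13566 genes. Upward bends were called for 17.5% of these genes and downward bends for 13.7%, 31.2% in all. LATS2 bent upward by 1.97 ± 0.39 (SE, adjusted p = 0.00909) and ANKRD1 by 1.81 ± 0.59 (adjusted p = 0.0435). CTGF had a bend of 1.18 ± 0.41 (adjusted p = 0.0619), AMOTL2 of 1.19 ± 0.45 (adjusted p = 0.104) and CYR61 of 1.23 ± 0.77 (adjusted p = 0.289), none of which passed. That is 2 of 5 targets called. The bend of AMOTL2 was 0.71 with UMI counts and 1.62 with read counts, neither called. The sizes moved widely with single libraries: without 0 min the bend was 0.30 for CYR61, 0.59 for AMOTL2 and 0.70 for CTGF, and without 720 min it was 2.20 for CYR61 and 1.81 for AMOTL2, none of these called. The fitted bend of AJUBA, the value it was chosen for, was 1.85 ± 0.16 and is given without a test. The SE holds both the noise between libraries and any departure of a course from the fitted curve. In a fit without 0 or 720 min, bend and trend take that end from the fit extended beyond the libraries left.

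These calls depended on single libraries. The LATS2 call was lost when the 0 min library was left out (1.67, adjusted p = 0.0851) and when the 240 min one was (1.63, adjusted p = 0.0622). ANKRD1 was not called without 0, 60, 120, 240 or 480 min (1.29 to 1.83, adjusted p from 0.0798 to 0.234), nor with no count filter (1.82, adjusted p = 0.0613). Without 720 min its bend was 3.69 (adjusted p = 0.000369). CTGF passed without 60 min (1.43, adjusted p = 0.00209), with DESeq2 (1.18, adjusted p = 0.00212), with read counts (1.28, adjusted p = 0.046) and on the rank time scale, where times are replaced by their order (1.20, adjusted p = 0.0242). AMOTL2 passed without 480 min (1.60, adjusted p = 0.0171) and on the rank time scale (1.32, adjusted p = 0.00677). On the rank time scale the middle of the course is the 240 min library.

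A trend was called for 0 of the 5 targets, against 3.9% of all genes rising and 2.96% falling, 6.86% in all, and 37% of genes were called for either measure. The fitted changes ran from -1.15 ± 0.69 for CYR61 (adjusted p = 0.362) to -0.16 ± 0.90 for ANKRD1 (adjusted p = 0.944). Without the 0 min library, CYR61 (-1.89, adjusted p = 0.00473) and AMOTL2 (-1.32, adjusted p = 0.0315) were called as falling. AJUBA had a fitted change of 1.21 ± 0.70, given without a test; leaving out 720 min gave 2.16 and leaving out 0 min gave 0.63.

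**Figure D4:**
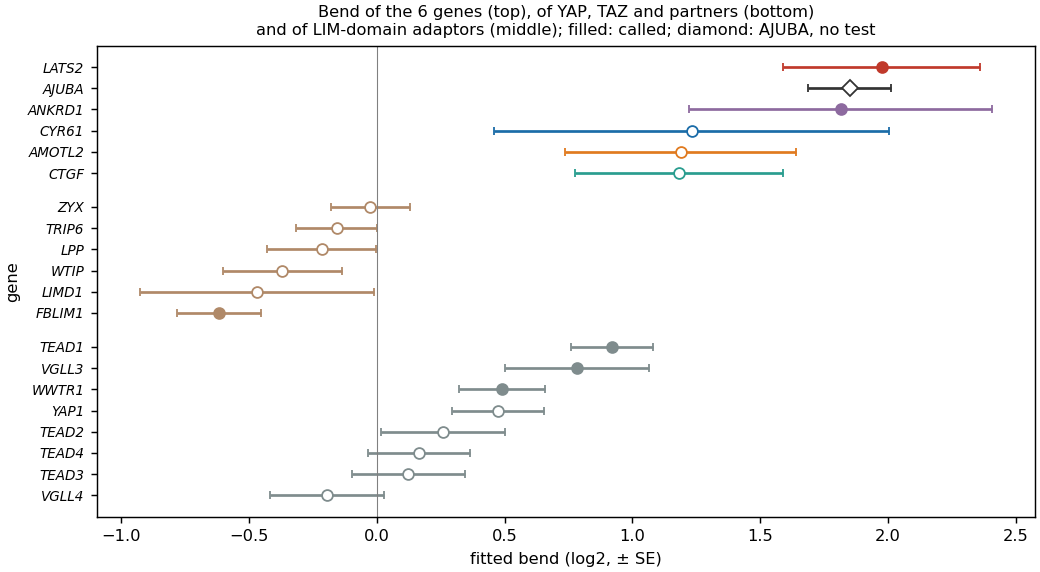
Fitted bend in log2 with its SE (horizontal axis) for the 6 genes, the LIM-domain adaptors and YAP, TAZ and their partners (vertical axis). Filled points passed the test at an adjusted p of 0.05, open points did not, and the open diamond of AJUBA was not tested; the 6 genes lie between 1.18 and 1.97 and the LIM-domain adaptors below 0.

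The 6 courses were compared by the Pearson correlation of log2 CPM over the 7 libraries, as a description. The closest pair was CYR61 and AMOTL2 (r = 0.948), followed by AMOTL2 and LATS2 (0.885); the farthest was CYR61 and AJUBA (0.29). All values share the same libraries. Among 6110 genes in reach of all 7 tables with a mean of at least 50 counts, the one most like CYR61 was CDKN1B, an inhibitor of cyclin-dependent kinases (r = 0.998), then the long noncoding RNA NEAT1 (0.986) and CLK1, a kinase of splicing factors (0.978). For CTGF they were CLOCK (0.983), CENPA (0.973) and COG6 (0.971). CLOCK ran between 120 and 150 CPM and CENPA between 67.6 and 82.7 CPM, far smaller ranges in proportion than that of CTGF. COG6, of the Golgi tethering complex, had 35.9 CPM at 60 min, 25.3 at 120 min and 35.0 CPM at 240 min. It was picked for its likeness to CTGF over the same libraries, so its dip is no separate evidence for that of CTGF. AMOTL2 was most like C10orf137 (0.994), LRP5L (0.994) and CCNT2, a cyclin of transcription elongation (0.990). LATS2 was most like LINC00673 (0.996), which had 66.2 CPM at 240 min against 6.95 CPM at 0 min, then GPBP1 (0.994) and AHRR, the aryl hydrocarbon receptor repressor (0.992). GPBP1 ran only between 181 and 256 CPM. AJUBA was most like BCL2L2, an anti-apoptotic relative of BCL2 (0.995), the read-through transcript MSANTD3-TMEFF1 (0.994) and HNRPLL, a splicing regulator (0.991). ANKRD1, with few counts, reached at most 0.936, with GIN1, before AUH (0.935) and BAZ1B (0.933). With 7 points these values rank likeness of shape, not size of change, and carry no test.

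Other known YAP and TAZ targets did not all share the course. Of 24 such genes, all tested, 8 bent upward (33.3%, against 17.5% of all genes) and 1 downward (4.17%, against 13.7%). A falling trend was called for 1 (4.17%, against 2.96% of all genes). Their median bend was 0.54, against 0.01 over all genes tested. Their median log2 ratio to 0 min was 0.53 after 240 min, against 2.04 for the 5 targets above and -0.004 over all genes tested. Both sets were chosen with earlier results of these data known, and the part of that choice in the difference was not tested. NUAK2, a kinase induced by YAP, bent upward by 3.45 ± 0.66 (edgeR adjusted p = 0.00618), with 2.47 CPM at 0 min, 22.2 at 240 min and 2.38 CPM at 720 min. AREG, an EGF receptor ligand, bent by 2.71 ± 0.48 (adjusted p = 0.00229) from very few counts: its 480 min level was 27.9-fold the unlit one, with an interval from 7.42 to 235. TGFB2 (1.44 ± 0.18), DLC1 (1.40 ± 0.20), FJX1 (1.36 ± 0.27), the transcription factor gene FOXF2 (1.25 ± 0.28), CRIM1 (1.12 ± 0.20) and MYOF (0.63 ± 0.17) completed the upward set, with adjusted p from 0.000519 to 0.0136. CRIM1 and AREG were highest at 480 min, as AJUBA was. Of the 20 promoter windows matched to this list, 7 held the TEAD core, against 14% of all windows; so did 7 of 25 windows of the actin and SRF list and 4 of 13 of the LIM-domain list described below.

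Other targets were high early but passed neither test. EDN1, the vasoconstrictor endothelin, had 14.2 CPM at 0 min, 108 after 60 min, 140 after 120 min, 148 after 240 min and 26.7 CPM after 480 min; after 240 min it was 10.4-fold the unlit level (8.63 to 12.6), with a bend of 2.02 ± 1.35 (edgeR adjusted p = 0.32). GADD45B, a stress-response gene, had 15.3, 66.8, 159, 159 and 24.4 CPM at those times and was also 10.4-fold at 240 min (8.67 to 12.5; bend adjusted p = 0.244). The coagulation starter F3 reached 2.62-fold at 240 min (2.30 to 2.98; adjusted p = 0.0789). By contrast IGFBP3, which binds insulin-like growth factors, had a falling trend of -2.56 ± 0.15 (adjusted p = 0.00013), to 103 CPM at 720 min against 544 CPM at 0 min. CCDC80 bent downward (-0.69 ± 0.20, adjusted p = 0.0206). Of the 10 calls in this list, 6 held in every alternative fitted; NUAK2 was lost without 240 min, with a bend of 3.52 (adjusted p = 0.0729), FOXF2 and CCDC80 when either 0 or 240 min was left out (adjusted p between 0.0676 and 0.108), and MYOF without 720 min, with a bend of 0.25 (adjusted p = 0.343), or on the rank time scale, with 0.42 (0.121); with UMI counts it was 0.39, still called. The bend of FOXF2 was 2.00 without 720 min, and that of AREG 1.80 without 480 min, both still called.

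**Figure D5:**
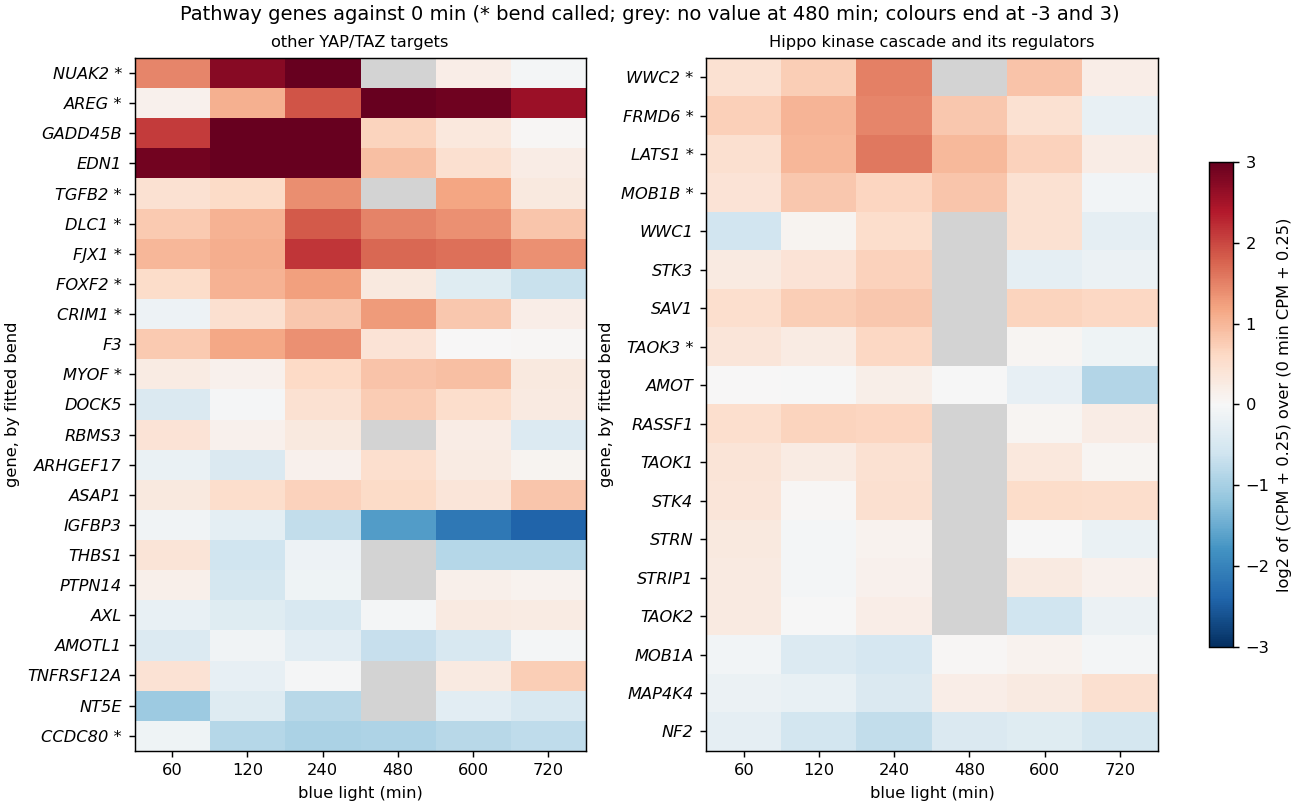
Log2 ratio of (CPM + 0.25) to 0 min by colour for other YAP and TAZ targets (left) and 18 genes of the Hippo kinase cascade (right), 1 row per gene and 1 column per time in minutes; genes are ordered by fitted bend, asterisks mark called bends, grey has no value and colours end at -3 and 3. EDN1, GADD45B and NUAK2 are at the red end of the scale at 240 min and AREG at 480 min, and IGFBP3 is deepest blue at 720 min.

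Within the kinase cascade, 5 of 18 genes bent upward (27.8%, against 17.5% of all genes) and 0 bent downward (against 13.7%). By edgeR 0 had a trend, against 6.86% of all genes in either direction. Their median bend was 0.55, against 0.01 over all genes tested. Leaving out 1 library gave 4 bend calls (without 240 min) to 9 (without 720 min). WWC2, a scaffold that promotes LATS activation, bent by 1.54 ± 0.18 (edgeR adjusted p = 0.000347), FRMD6 by 1.40 ± 0.19 (adjusted p = 0.000839) and LATS1, the second LATS kinase, by 1.36 ± 0.21 (adjusted p = 0.00123). LATS1 had 55.2 CPM at 0 min, 76.9 after 60 min, 111 after 120 min, 165 after 240 min, 109 after 480 min, 89.7 after 600 min and 64.2 CPM after 720 min, so both LATS genes were highest after 240 min. MOB1B, a LATS coactivator, bent by 0.91 ± 0.19 (adjusted p = 0.00528) and the kinase gene TAOK3 by 0.61 ± 0.19 (adjusted p = 0.0251), the TAOK3 call ending when 0 min (adjusted p = 0.189) or 240 min (0.303) was left out. The bends of WWC2, FRMD6, LATS1 and MOB1B were called in all 14 alternatives. The kinases STK3 and STK4 and the tumour suppressor NF2 were called for neither measure (bend adjusted p = 0.0716, 0.423 and 0.202).

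The gene of YAP itself passed neither test. YAP1 had 60.5 CPM at 0 min, 60.8 after 60 min, 67.3 after 120 min, 87.4 after 240 min, 84.1 after 600 min and 72.9 CPM after 720 min, at most 1.44-fold (1.29 to 1.62), and its bend of 0.47 ± 0.18 did not pass (edgeR adjusted p = 0.0589). TEAD1 had an upward bend of 0.92 ± 0.16 (adjusted p = 0.00188), with 314 CPM at 240 min against 161 CPM at 0 min, a call that held in all 14 alternatives. WWTR1, which encodes TAZ (0.49 ± 0.17, adjusted p = 0.0401), and the cofactor gene VGLL3 (0.78 ± 0.28, adjusted p = 0.0474) also passed, but WWTR1 was lost in 7 and VGLL3 in 8 of the 14 alternatives, for both among them the fits without 0, 60, 120, 240 or 720 min (adjusted p from 0.0534 to 0.311). TEAD2 had a falling trend of -1.23 ± 0.26 (adjusted p = 0.0308), which did not pass when 60, 120, 600 or 720 min was left out (adjusted p between 0.0934 and 0.195) or on the rank time scale (0.0791). That made 3 upward bends and 1 falling trend among 8 tested genes, where 17.5% of all genes bent upward and 2.96% had a falling trend.

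Of 6 LIM-domain adaptor genes of the AJUBA and zyxin families, 0 bent upward and 1, FBLIM1, bent downward (-0.62 ± 0.16, edgeR adjusted p = 0.0148), against 17.5% upward and 13.7% downward of all genes. Leaving out 0 min (adjusted p = 0.0783) or 240 min (0.0647) ended that call. LIMD1 and WTIP, the closest relatives of AJUBA, had bends of -0.47 ± 0.46 and -0.37 ± 0.23 (adjusted p = 0.453 and 0.237), LIMD1 at no more than 4.23 CPM. Zyxin itself (ZYX) stood at 433 CPM at 720 min against 324 CPM at 0 min, with a bend of -0.03 ± 0.15 (adjusted p = 0.915).

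Of the other CCN genes 2 were tested, too few to set against the 17.5% of all genes that bent upward. NOV (CCN3) bent downward (-1.02 ± 0.26, edgeR adjusted p = 0.0103), with 27.9 CPM at 0 min, 10.6 at 240 min and 11.5 CPM at 720 min, and WISP1 had a falling trend of -2.30 ± 0.52 (adjusted p = 0.0377) at low levels, at most 5.29 CPM. The NOV call ended when 240 min was left out (adjusted p = 0.201) and on the rank time scale (bend -0.56, 0.0649), and that of WISP1 when 60, 120, 600 or 720 min was left out (0.0933 to 0.219) and on the rank time scale (0.12). WISP2 had too few counts to be tested. WISP3 had no row.

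CYR61 and CTGF are also known to respond to serum response factor and its actin-regulated partners, so genes of actin and of that pathway were read beside them. Of 16 tested, 2 bent upward (12.5%, against 17.5% of all genes) and 1 bent downward (6.25%, against 13.7%). A falling trend was called for 2 (12.5%, against 2.96% of all genes). The median bend was 0.10, against 0.01 over all genes tested. FHL2, a LIM-domain cofactor, had an upward bend of 0.71 ± 0.12 (edgeR adjusted p = 0.00159), called in all 14 alternatives though at 0.38 with UMI counts, and the cofactor gene MKL2 one of 0.76 ± 0.19 (adjusted p = 0.0113). FLNA, the actin crosslinker filamin A, bent downward (-0.88 ± 0.21, adjusted p = 0.0108). Both the MKL2 and the FLNA call ended when 0 or 240 min was left out (adjusted p between 0.0684 and 0.103), and without 720 min the bend of FLNA was -1.39. The trends of ACTG1 (-0.58 ± 0.14, adjusted p = 0.0378) and VCL, vinculin (-0.81 ± 0.19, adjusted p = 0.0398), were lost in 6 and 7 of the 14 alternatives, among them the fits without 60, 120, 480 or 600 min, and for ACTG1 0 min and for VCL 720 min (adjusted p from 0.0511 to 0.239). By UMI counts the trend of ACTG1 was -0.26 (adjusted p = 0.293). SRF stood at 96.7 CPM at 0 min, 122 at 240 min and 147 CPM at 720 min (trend adjusted p = 0.143). TAGLN and ACTA2, classic targets, had bends of -1.01 ± 0.39 and -0.50 ± 0.26 (adjusted p = 0.061 and 0.155). ACTA2 also had an uncalled rising trend of 1.18 ± 0.31 (edgeR adjusted p = 0.051). TPM1, TPM2, CNN2 and CALD1 of the same list went the other way, with positive bends from 0.11 to 0.55, none of them called.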

How the data were processed

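H4 RNA from 7 times of illumination was sequenced with an adaptation of CEL-Seq2, which counts transcript 3′ ends with UMIs, 1 library per time, per the labels. The authors deposited expected counts per gene (reads, UMIs and transcripts) in 96 barcode columns; barcode 4, the primer named in the labels, was used, and the other 95 columns were not. Per the submitters' processing notes BWA and the build hg19 were used; no version, annotation or counter is given in the sources used here. Transcript counts as deposited match UMI counts corrected for collisions among 4096 UMIs (largest difference 7.4e-10). They were rounded to whole numbers. ERCC spike-ins, which name no gene, held at most 0.0124% of reads and were left out. Symbols and chromosomes were read from row names, and no hg19 coordinates were used.

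A gene was tested if 3 or more libraries held 10 or more counts of it. The test was edgeR's (4.0.16, R 4.3.3) robust quasi-likelihood F test, with Benjamini-Hochberg adjustment over all genes and a threshold of 0.05. TMM factors came from the complete libraries, and the library of 480 min was scaled on its listed genes. Genes after NME1-NME2 were fitted on 6 libraries. The SE is the fitted value divided by the root of F. Each lit time was set against 0 min with no test, by exact binomial 95% intervals of the count ratio and, for counts at 2-fold, by log2 ratios with a prior count of 2 over genes with 50 or more counts in 1 of both libraries. Promoter windows are RefSeq's on GRCh38.p14. The p-values measure only the spread of single libraries around the fitted shape. The steps were tried on simulated counts whose log2 courses were straight or quadratic, with a fixed noise. Courses of other shapes, such as the dip of CTGF, were not simulated.

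The members and lists were chosen with earlier results of these data known. Named were all members, every called list gene (at most 8 per list by p), list genes at least 4-fold from 0 min at some time with at least 50 counts, and the 3 genes most correlated with each member. Other list genes (F3, MYOF, CCDC80, YAP1, STK3, STK4, NF2, LIMD1, WTIP, ZYX, SRF, TAGLN, ACTA2, TPM1, TPM2, CNN2 and CALD1) were named after their values were seen, for their roles or to show the other direction. Alternatives were RLE size factors, DESeq2 1.42.0, other count filters, UMI or read counts, the rank time scale and leaving out each library. Values of 1 gene of the list of other targets are not reported here, and it is not drawn.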

Additional observations from a re-analysis of the deposited data

How the results depend on the processing

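No paired analysis was possible because each time has 1 library. Of 70 comparisons of counts of calls with another setting than leaving out a library, 64 stayed within 1.5 times. With DESeq2, rising trends over all genes numbered 854 and falling ones 718 (529 and 401 by edgeR), and 3 of the other YAP and TAZ targets had a trend (1 by edgeR). Upward bends among the 5 targets numbered 2 by edgeR, 1 with no count filter and 4 on the rank time scale. With the stricter count filter 1 was called, LATS2, but ANKRD1 had too few counts there to be tested.

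Leaving out 1 library gave 86 to 766 rising and 49 to 715 falling trends (fewest without 600 min, most without 0 min), and 820 to 2400 upward and 500 to 1907 downward bends (fewest without 240 min). Among the 5 targets it gave 0 to 2 bends (0 without 0 or 240 min, 1 without 120 min) and 0 to 2 trends; among the other targets 6 to 11 bends and 1 to 5 trends (5 without 0 min), and in the kinase cascade 4 to 9 bends and 0 to 1 trend (1 without 0 min). Uncalled trends changed sign for CTGF (-1.04 to 0.11, positive without 720 min), LATS2 (-1.31 to 0.22, positive without 720 min) and ANKRD1 (-0.82 to 0.52, positive at 0.13, 0.52 and 0.18 without 240, 600 and 720 min, and 0.26 on the rank time scale). No bend of a member changed sign. The cause was not tested. Fitting all genes on the 6 complete libraries is the same fit as leaving out 480 min.

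Of the members' log2 ratios to 0 min recomputed under another count, prior or scaling, 166 stayed within the counting interval and 14 did not, 11 of them AMOTL2 with UMI or read counts. Depth limits ANKRD1 most, with 12 to 81 transcripts per library.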
